A study of Mus musculus with 17 samples.

Results

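The peaks described here are the H3K27ac peaks of mouse hypothalamus that lie at the ends of more than 1 protein-coding gene. A peak was taken as shared when its summit, the position of highest signal, lay within 1000 bp of an end of 2 or more different protein-coding genes, with gene spans from the RefSeq annotation of build mm10 (GRCm38.p6). On the 19 autosomes 16296 peaks had a summit within that distance of any protein-coding gene end, and 2001 of them (12.3%, Wilson 95% interval 11.8 to 12.8%) were shared. The other 14295 lay at an end of 1 gene only and serve as the comparison. All autosomes together held 181187 peaks, so the shared peaks made up 1.1% of them. They touched 3632 genes. Of the shared peaks, 1967 lay at ends of 2 genes, 32 at ends of 3 genes, 1 at ends of 14 and 1 at ends of 25.

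The series holds 17 samples from hypothalamus: 7 libraries of DNA and 7 of RNA made by Paired-Tag, a method that reads histone marks and RNA from the same single cells, and 3 biological replicates of bulk CUT&Tag. In CUT&Tag an antibody, here against H3K27ac, directs a transposase to cut and tag the DNA next to the marked nucleosomes. The shared peaks come from 1 peak list deposited for the 3 bulk replicates, and the Paired-Tag samples were not used. The labels name the tissue and the antibody. For strain, age, sex, treatment and the number of animals behind each replicate, the sources used here give nothing. The list has no value per replicate and no read depth. Every comparison below is therefore a description of 1 list with no p-value: the spread is given over autosomes, and Wilson intervals cover counting error only.

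H3K27ac, acetylation of lysine 27 of histone H3, marks nucleosomes beside active promoters and enhancers. Mammalian genes often lie head to head, with starts close together on opposite strands, and such a shared region is called a bidirectional promoter. These promoters are known to be rich in CpG dinucleotides, to lack a TATA box in most cases, and to serve many genes of DNA repair, mitochondrial function and protein synthesis. Other neighbours lie head to tail, with the start of a gene near the 3′ end of the next, or tail to tail, with both 3′ ends together.

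To show what a shared region looks like, 6 promoters of head-to-head pairs are printed from RefSeq (GRCm38.p6). They belong to the head-to-head pairs with the highest peaks and to pairs known from the literature on bidirectional promoters. They are compact examples, since in each the span of the partner begins inside the run. Of the 17 candidate pairs looked at, 10 had the partner's promoter start in the same window and 7, among them Aimp1/Tbck, Gart/Son and Hspd1/Hspe1, did not. Each run holds 300 bases, 5′ to 3′ on the strand of the named gene, and that gene's start in the promoter table is at position 251 counted from the 5′ end. Capitals mark matches, on either strand, to the short motifs searched: GCATGCGC (NRF1), CCGGAAG (ETS factors), AAGATGGCG (YY1), CCAAT (the CCAAT box), GGGCGG (SP factors), TGACGTCA (the CRE, the cyclic AMP response element), TATAAA (the TATA box) and ACTACAAT (ZNF143). Larp7, on the minus strand at chr3:127553300-127553599, is paired with Zgrf1. Rpa1, on the minus strand at chr11:75348334-75348633, is paired with Smyd4. Atm (chr9:53536622-53536921) is paired with Npat, Mrps12 (chr7:28741772-28742071) with Sars2, Ranbp1 (chr16:18248645-18248944) with Trmt2a, and Psmb9 (chr17:34187281-34187580) with Tap1, each first gene on the minus strand.
Larp7 promoter: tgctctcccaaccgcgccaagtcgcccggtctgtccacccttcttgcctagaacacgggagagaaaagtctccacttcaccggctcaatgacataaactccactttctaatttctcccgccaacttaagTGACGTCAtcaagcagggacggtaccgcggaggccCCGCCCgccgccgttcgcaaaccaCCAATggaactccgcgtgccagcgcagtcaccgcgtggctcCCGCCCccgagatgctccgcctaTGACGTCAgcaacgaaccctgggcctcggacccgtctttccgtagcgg
Rpa1 promoter: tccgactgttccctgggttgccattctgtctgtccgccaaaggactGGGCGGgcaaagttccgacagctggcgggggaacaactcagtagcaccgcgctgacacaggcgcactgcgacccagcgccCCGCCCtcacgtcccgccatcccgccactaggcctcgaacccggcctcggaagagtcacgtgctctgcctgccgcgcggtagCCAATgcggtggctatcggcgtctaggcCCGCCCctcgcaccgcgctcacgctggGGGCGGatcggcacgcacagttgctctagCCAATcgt
Atm promoter: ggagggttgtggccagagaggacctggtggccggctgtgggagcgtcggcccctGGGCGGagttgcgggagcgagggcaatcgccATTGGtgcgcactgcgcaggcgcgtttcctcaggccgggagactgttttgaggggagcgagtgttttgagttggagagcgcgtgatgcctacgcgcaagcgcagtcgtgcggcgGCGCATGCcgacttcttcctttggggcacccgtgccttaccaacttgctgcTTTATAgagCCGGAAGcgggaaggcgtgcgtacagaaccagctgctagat
Mrps12 promoter: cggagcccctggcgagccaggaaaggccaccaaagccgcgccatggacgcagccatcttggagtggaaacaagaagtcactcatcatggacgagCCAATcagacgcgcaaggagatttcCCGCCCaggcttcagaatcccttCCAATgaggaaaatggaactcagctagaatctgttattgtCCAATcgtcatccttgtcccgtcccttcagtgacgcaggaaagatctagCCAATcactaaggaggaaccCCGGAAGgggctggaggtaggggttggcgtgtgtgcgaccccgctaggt
Ranbp1 promoter: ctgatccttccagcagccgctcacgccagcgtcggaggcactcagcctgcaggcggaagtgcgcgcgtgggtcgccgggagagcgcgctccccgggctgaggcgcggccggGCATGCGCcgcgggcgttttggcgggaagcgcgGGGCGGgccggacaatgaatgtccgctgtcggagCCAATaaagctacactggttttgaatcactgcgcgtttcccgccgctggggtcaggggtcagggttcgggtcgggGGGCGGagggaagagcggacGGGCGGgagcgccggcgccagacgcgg
Psmb9 promoter: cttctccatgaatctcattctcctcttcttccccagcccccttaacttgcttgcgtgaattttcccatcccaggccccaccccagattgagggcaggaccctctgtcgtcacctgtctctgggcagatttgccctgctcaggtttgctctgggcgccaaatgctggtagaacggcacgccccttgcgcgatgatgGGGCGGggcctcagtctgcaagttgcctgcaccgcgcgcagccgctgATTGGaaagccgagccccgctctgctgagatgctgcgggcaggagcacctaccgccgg

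By the same promoter table, the partner starts in the other direction at position 111 in the Larp7 promoter (Zgrf1), 201 in Rpa1 (Smyd4), 104 in Mrps12 (Sars2), 62 in Ranbp1 (Trmt2a) and 25 in Psmb9 (Tap1). In the Atm promoter the table's start of Npat lies outside the run, although the gene span of Npat begins at position 33. A gene's span can begin upstream of the start in the promoter table, and all distances to gene ends below are to spans. The Larp7 promoter holds the CRE letters at positions 130 and 253. The Atm promoter holds the NRF1 letters at position 200 and the ETS letters at 260. The Mrps12 promoter holds CCAAT boxes at positions 95, 143, 183 and 232 and the ETS letters at 252. Ranbp1 has the highest GC content of the 6, 72.0%, with 42 CpG dinucleotides in its 300 bases. A match is a description of the letters and not evidence that a factor is bound.

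Peaks shared by gene ends were higher and somewhat wider than peaks at the end of 1 gene. Peak height is given as fold, the enrichment at the summit that the authors' caller wrote for each peak. The median fold was 8.29 for the 2001 shared peaks (quartiles 4.15 to 11.9, range 1.52 to 23.6), against 6.37 for the 14295 single-gene peaks (quartiles 3.32 to 10.6) and 3.18 for all autosomal peaks. The difference of 1.93 between the shared and single-gene medians was above 0 on 19 of 19 autosomes, from 0.612 on chromosome 6 to 5.52 on chromosome 12 (SD over autosomes 1.24). The median width was 1197 bp for shared and 1053 bp for single-gene peaks, and this difference of 144 bp also held on 19 of 19 autosomes, between 70 and 270 bp. The fold difference was 0.639 with a limit of 2500 bp and 1.19 among peaks above the median −log10 q, where the width difference was 72.5 bp. The median −log10 q was 189 for shared peaks and 100.3 for single-gene peaks.

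A peak was called strong when its fold reached the upper decile of all autosomal peaks, 6.30, so that 10.0% of all peaks were strong by construction. Of the shared peaks 1250 (62.5%, Wilson 60.3 to 64.6%) were strong, against 50.5% of the single-gene peaks. The 1000 autosomal peaks of highest fold held 120 shared peaks, 6.0% of all shared peaks, and 708 single-gene peaks, 4.95% of theirs, against 0.552% of all autosomal peaks. The share of end peaks that were shared ran from 6.94% on chromosome 18 to 16.5% on chromosome 17.

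**Figure D1:**
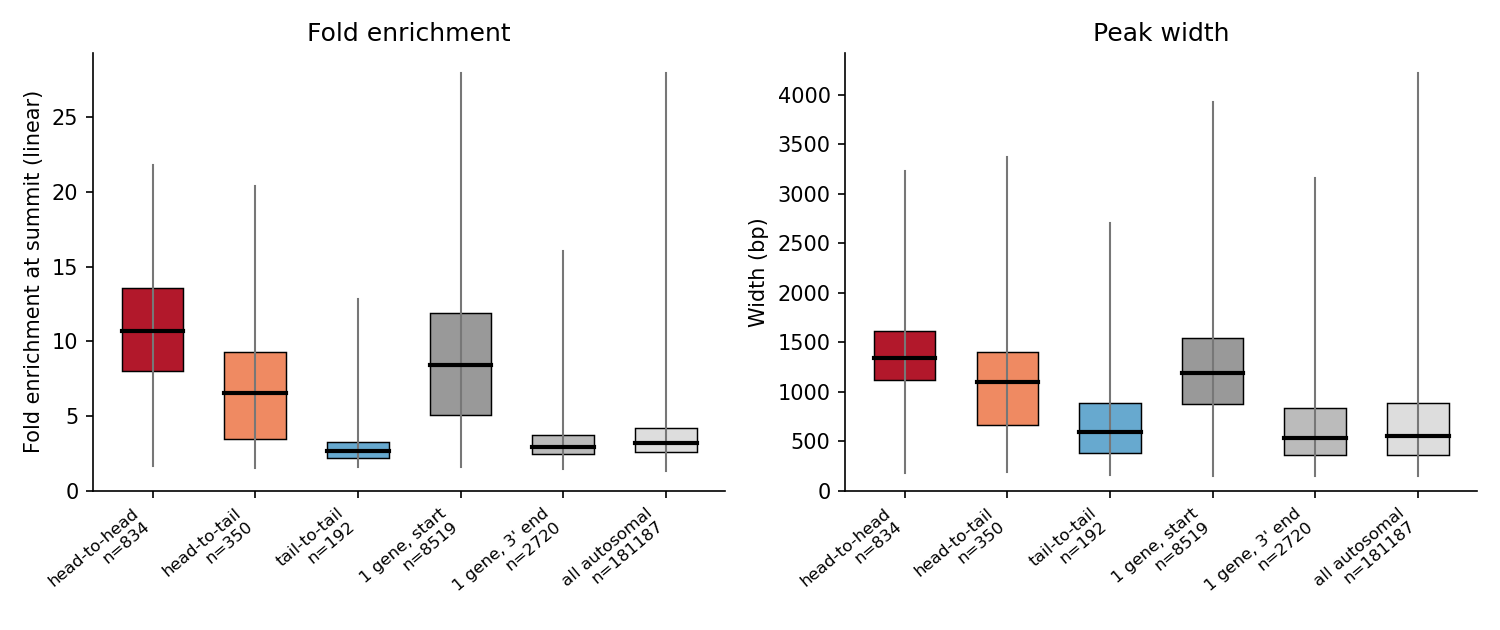
Fold enrichment and width (bp) of peaks by class, with boxes from the lower to the upper quartile, a line at the median and grey lines from the lowest to the highest peak. Head-to-head peaks have the highest median fold of the classes drawn with over 100 peaks, 10.7, and tail-to-tail peaks the lowest, 2.66.

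The height of a shared peak followed which ends it lay at. The reference gave the strand for 16457 of 20665 autosomal protein-coding genes, and 1433 shared peaks at 2 genes could be oriented. Of these, 834 (58.2%, Wilson 55.6 to 60.7%) were head-to-head, 350 (24.4%) head-to-tail and 192 (13.4%) tail-to-tail. The rest lay at a start and a 3′ end on opposite strands (31), at starts on the same strand (21) or at 3′ ends on the same strand (5). A further 534 shared peaks had a gene without a strand, and the 34 with 3 or more genes were kept apart.

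Head-to-head peaks were the tallest of the 3 large classes. Their median fold was 10.7 (quartiles 8.04 to 13.5, range 1.67 to 21.8), against 8.44 (quartiles 5.06 to 11.9) for 8519 single-gene peaks whose nearest end was a gene start. The difference of 2.25 was above 0 on 18 of 18 autosomes with strand information, from 0.288 on chromosome 16 to 4.64 on chromosome 14. Strong peaks numbered 712 of 834 (85.4%, Wilson 82.8 to 87.6%), against 66.2% of the single-gene start peaks. The gap between the classes was wider at the lower quartile (8.04 against 5.06) than at the upper quartile (13.5 against 11.9). Below the median fold of all peaks lay 17 of the 834. Of the head-to-head peaks 79 (9.47%) were among the 1000 highest peaks, against 579 (6.80%) of the single-gene start peaks, although the tallest single-gene start peak, at 28.0, exceeded every head-to-head peak.

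The pair of highest fold was Larp7/Zgrf1, with a fold of 21.8 at a summit 247 bp from the Larp7 start. Larp7 encodes a protein that binds the 7SK RNA, and Zgrf1 a helicase of crosslink repair; the peak, on chromosome 3 from 127552953 to 127553662, was only 710 bp wide. Next came Rpa1/Smyd4 (fold 21.1, chr11:75348120-75349034), Aimp1/Tbck (20.4), Fam228b/Pfn4 (20.2) and Ndc80/Spdya (19.6). Rpa1 encodes the large subunit of the single-stranded DNA-binding protein of replication and repair, and Ndc80 a kinetochore protein. At the other end stood Amigo2/Pced1b (1.83) and Myd88/Acaa1a (1.67), the latter between the starts of the Toll-like receptor adaptor and of a peroxisomal thiolase that lie 1010 bp apart. The widest head-to-head peak, at Ino80e/Hirip3, spanned 3229 bp with a fold of only 5.21.

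Tail-to-tail peaks were low. Their median fold was 2.66 (quartiles 2.21 to 3.25), against 2.95 (quartiles 2.44 to 3.72) for 2720 single-gene peaks whose nearest end was a 3′ end. The difference of −0.297 was above 0 on only 5 of 18 autosomes. Only 6 of 192 (3.13%, Wilson 1.44 to 6.65%) were strong, against 5.66% of the single-gene 3′ end peaks. The tallest, at Dcst2/Zbtb7b (fold 12.8, chr3:89377967-89379173), was the only one at or above the head-to-head median. The Dcst2/Zbtb7b summit lay 958 and 959 bp from the 3′ ends, near the 1000 bp limit. Fmnl1/Efcab15 followed at 9.92, with its summit 701 and 742 bp away, and Tmem234/Dcdc2b at 7.56, 199 and 802 bp away. The lowest were Arhgef40/Zfp219 (1.60) and Tmem150a/Rnf181 (1.57).

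Head-to-tail peaks lay between the others, and the nearest end separated them. The median fold of the 350 peaks was 6.51 (quartiles 3.50 to 9.26). In 289 of them (82.6%) the summit was nearer to the start, with a median fold of 7.17 and a median width of 1146 bp. In the other 61 it was nearer to the 3′ end, with a median fold of 2.86 and a median width of 541 bp. With the start 0 to 99 bp from the summit, the median was 7.57 for head-to-tail and 9.74 for single-gene start peaks. At 100 to 199 bp it was 8.13 against 9.76, at 200 to 399 bp 5.99 against 7.55, and at 400 to 1000 bp 2.95 against 5.35. The median of all head-to-tail peaks minus the single-gene start median was −1.93, and this difference was above 0 on 3 of 18 autosomes. The highest were G2e3/Scfd1 (20.4, chr12:51377232-51377939), where the start is that of Scfd1, a protein of vesicle fusion at the Golgi, and Rpl4/Snapc5 (20.2), where the start is that of Snapc5, a subunit of the small nuclear RNA activating complex. The lowest were Ldb3/Opn4 (1.70) and Urm1/Cercam (1.52).

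Distance between the starts, taken as the 5′ ends of the gene spans, and of the summit from them was examined in the 834 head-to-head peaks. The median gap between the starts was 37 bp, with quartiles of −139.5 and 134 bp, a negative gap meaning that the 5′ ends of the gene bodies overlap. Overlap was present in 306 pairs (36.7%). The peak covered both starts in 757 cases (90.8%). Among the 528 peaks with a gap of 0 bp or more, the summit lay between the starts in 198 (37.5%), and elsewhere in the others. The nearest start was at a median of 83 bp from the summit and the other start at 188 bp. The summit was nearer to the plus-strand gene in 443 peaks and to the minus-strand gene in 391.

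Median fold stayed between 10.1 and 11.7 for gaps under 500 bp. It was 10.1 where the gene bodies overlapped, 11.7 for gaps of 0 to 99 bp (268 peaks), 10.8 for 100 to 249 bp (145) and 10.8 for 250 to 499 bp (75). The median was 9.12 for the 37 peaks with a gap of 500 to 999 bp. Summits close to a start were also compared at like distances. With the nearest start 0 to 99 bp away, the median was 11.1 for head-to-head and 9.74 for single-gene start peaks, and at 100 to 199 bp it was 10.7 against 9.76. At 200 to 399 bp it was 9.90 against 7.55 and at 400 to 1000 bp 6.41 against 5.35. The head-to-head median was higher in each of the 4 distance bands.

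**Figure D2:**
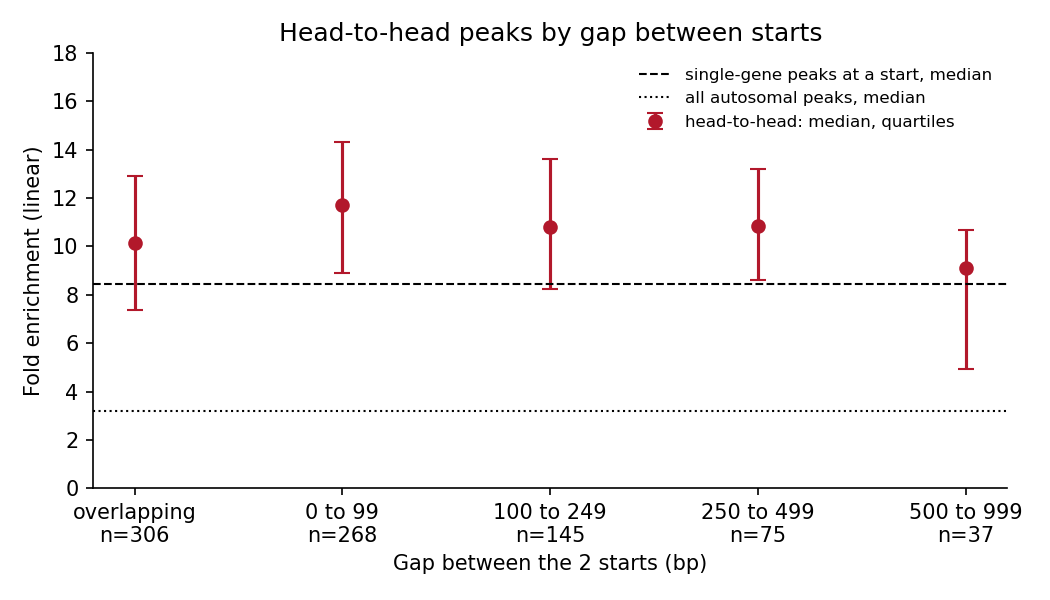
Fold enrichment of head-to-head peaks by the gap between the starts (bp), with the first class holding peaks at pairs whose gene bodies overlap. Points are medians, bars run from the lower to the upper quartile, and lines mark the medians of single-gene start peaks (dashed, 8.44) and all autosomal peaks (dotted, 3.18). Median fold stays between 10.1 and 11.7 up to 499 bp and is 9.12 for gaps of 500 to 999 bp.

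Pairs of gene ends were also followed from the annotation, whether or not they had a peak. Of 992 head-to-head pairs of starts at most 2000 bp apart, 844 (85.1%, Wilson 82.7 to 87.2%) had a shared peak. The share was 38.2% of 900 head-to-tail pairs and 18.6% of 1034 tail-to-tail pairs. These classes held more pairs 1001 to 2000 bp apart, 401 and 327, against 114 of the head-to-head pairs. At 0 to 250 bp their shares were 66.25% and 28.4%. A summit within 1000 bp of either end was found for 95.7% of head-to-head, 72.9% of head-to-tail and 39.0% of tail-to-tail pairs. For comparison, 58.0% of 13134 isolated starts and 16.4% of 12884 isolated 3′ ends had a summit within 1000 bp. Among head-to-head pairs the share was 95.6% at 0 to 250 bp, 95.3% at 251 to 500 bp, 84.7% at 501 to 1000 bp and 16.7% at 1001 to 2000 bp. In that last band only a summit between the starts can lie within 1000 bp of both, and 30 of the 114 pairs instead had separate peaks at their starts. The stretch within 1000 bp of both starts also shrinks over the earlier bands. A summit within 1000 bp of either start was found for 95.6%, 97.0%, 96.0% and 93.9% of head-to-head pairs, in order of band.

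**Figure D3:**
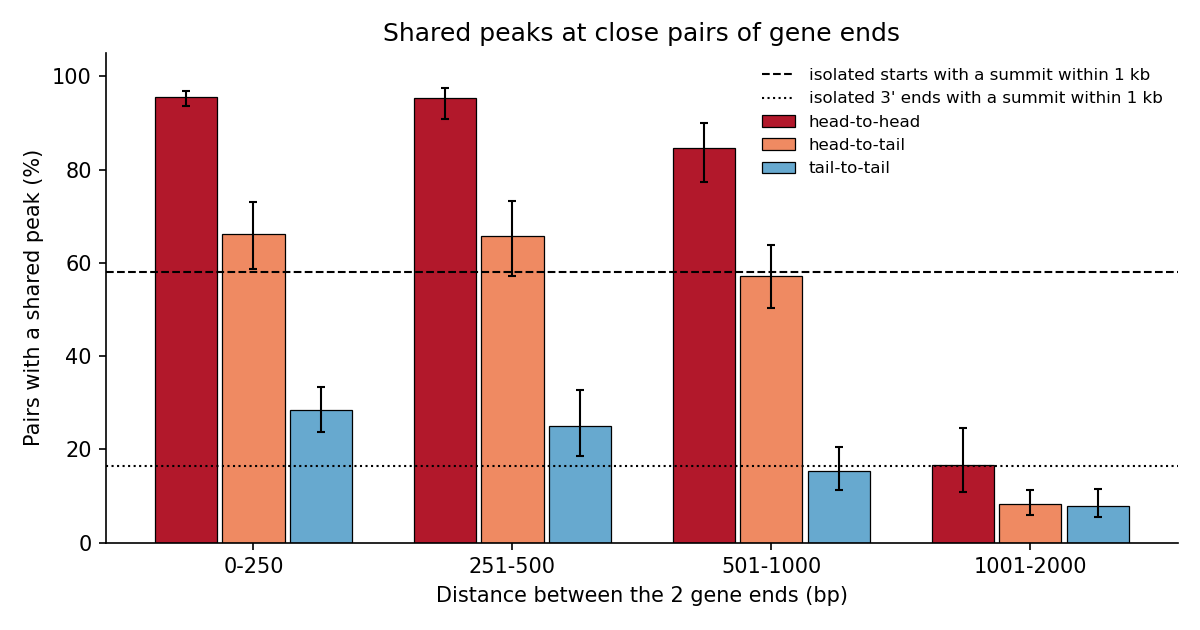
Percent of neighbouring gene ends that have a shared peak, by orientation and by the distance between the ends (bp), with Wilson 95% intervals as error bars. The dashed line marks isolated starts (58.0%) and the dotted line isolated 3′ ends (16.4%) with a summit within 1000 bp. Head-to-head pairs stand at 95.6% in the first band against 28.4% of tail-to-tail pairs.

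Well-known neighbouring pairs were looked up by name, from a list of 20 that was meant to hold bidirectional promoters. A shared peak was found for 19 of them. Tcp1/Acat2 had none, and could have none under the 1000 bp rule, since its closest annotated ends lie 17975 bp apart. Atm/Npat (a DNA break kinase and a regulator of histone genes) had a fold of 13.5, Hars/Hars2 (cytosolic and mitochondrial histidyl-tRNA synthetase) 13.5, Prkdc/Mcm4 13.2 and Brca1/Nbr1 12.2. Hspd1/Hspe1, the mitochondrial chaperonin and its co-chaperonin, had 8.52. The collagen pairs were lower, at 7.10 for Col4a1/Col4a2 and 5.27 for Col4a3/Col4a4. The Psmb9/Tap1 pair, of the immunoproteasome and peptide transport, had 7.17. Wrap53/Trp53 carried 2 shared peaks, of 7.07 and 3.77. The summit of the taller lay 897 and 995 bp from the starts, and that of the lower 30 and 68 bp. The Brca1/Nbr1 summit lay 648 and 800 bp from the starts. Thra/Nr1d1 had the lowest fold, 2.62, with the summit 739 bp from the 3′ end of Nr1d1. These genes are known to overlap at their 3′ ends, so they are no bidirectional promoter. Without them 18 of 19 pairs had a shared peak, the exception being Tcp1/Acat2, whose ends lie too far apart for the rule. This list was chosen for its known architecture, so it does not stand for shared peaks in general.

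Genes with shared peaks were counted in 13 lists, beside the value for all protein-coding genes, of which 17.6% lay at a shared peak. The share was 52.4% (33 of 63) for replication-dependent histones, 48.7% (38 of 78) for mitochondrial ribosomal proteins, 43.3% (13 of 30) for chaperones, 42.3% (52 of 123) for DNA repair and replication, 42.1% (16 of 38) for tRNA synthetases and 41.9% (39 of 93) for oxidative phosphorylation. Genes of a list can lie at the same peak, so they are not independent: the 33 histone genes lay at 17 shared peaks. Cytosolic ribosomal proteins (22.5%) and the proteasome (23.7%) were nearer to the value for all genes. Zinc finger proteins (11.3%), synaptic and neuronal genes (12.1%), glia and vessel genes (9.30%) and hypothalamic peptides and factors (4.69%, 3 of 64) were below it. How close genes lie differed too: an end of another gene lay within 2000 bp for 81.0% of the histone genes, 64.2% of the DNA repair genes and 33.2% of all genes, but for 12.5% of the hypothalamic list. Among genes with such a close neighbour, 52.9% of all genes lay at a shared peak, against 80.0% of tRNA synthetase genes, 76.0% of mitochondrial ribosomal genes, 68.4% of oxidative phosphorylation genes, 65.8% of DNA repair genes, 64.7% of histone genes and 37.5% (3 of 8) of the hypothalamic list. On this measure chaperones stood at 65.0% (13 of 20) and synaptic and neuronal genes at 46.7% (7 of 15). The clock list stood at 44.4% (4 of 9) and glia and vessel genes at 36.4% (4 of 11). Zinc finger proteins, below all genes before, were slightly above them at 55.7% (44 of 79). Cytosolic ribosomal proteins, above all genes before, were below them at 45.0% (18 of 40), and the proteasome was level at 52.9% (9 of 17). The tRNA synthetase share rests on 16 of 20 genes. Many of these counts are small, and no intervals were computed for this measure. The part that gene spacing has in the shares was not tested further.

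**Figure D4:**
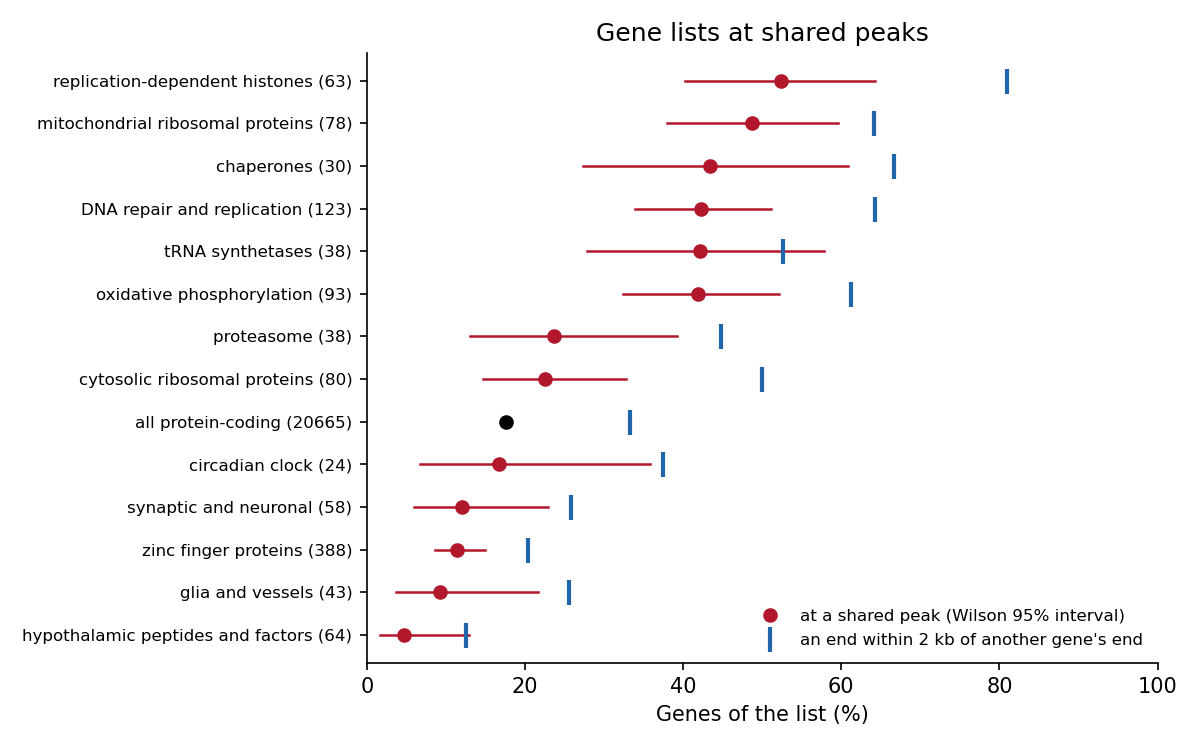
Percent of the genes of each list that lie at a shared peak, with Wilson 95% intervals covering counting error only, beside all protein-coding genes (black) at 17.6%. Blue ticks give the percent of each list with an end within 2000 bp of another gene's end. The histone and mitochondrial ribosomal lists are highest, and the hypothalamic list is lowest at 4.69%. The intervals treat genes as independent, although genes of a list can lie at the same peak, as do many histone genes.

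Among shared peaks of these lists, the 55 at DNA repair genes had a median fold of 12.3, against 8.29 for all shared peaks. Of the 55, 37 were head-to-head, against 834 of all 2001 shared peaks (41.7%), and the head-to-head class had a median of 10.7. The part that orientation has in these list medians was not tested. Examples at repair genes are Xrcc4/Tmem167 (18.5), where Xrcc4 encodes an end-joining factor, and Pole3/4933430I17Rik (17.4), where Pole3 encodes a DNA polymerase epsilon subunit. The 39 oxidative phosphorylation peaks, 24 of them head-to-head, had a median of 11.5. Uqcrb/Gm10767, with Uqcrb encoding a subunit of the cytochrome bc complex, had a fold of 18.5, and Ndufa4/Phf14 16.7. For mitochondrial ribosomal proteins, the highest shared peak of all, Wdfy1/Mrpl44 (chr1:79775891-79776516), had a fold of 23.6, and Eme1/Mrpl27 had 19.4. Other tall peaks of protein synthesis and quality control were Mrpl32/Psma2 (17.3), Lyrm4/Fars2 (16.2), Ftsj3/Psmc5 (16.1) and Psph/Cct6a (14.5). The 17 peaks of histone genes, 8 of them head-to-head, had a lower median, 6.47, with H3c13/H2bc18 at 9.40 and H3c3/H2bc3 at 9.0.

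Few genes typical of hypothalamic neurons had shared peaks. Agrp, the feeding peptide of arcuate neurons, shares a peak with Atp6v0d1 (fold 9.70), but the summit lies 67 bp from the Atp6v0d1 start and 564 bp from the Agrp end. Rln3 shares one with Il27ra (11.2), with the summit 278 bp from an Il27ra end and 745 bp from the 3′ end of Rln3. Qrfp shares a tail-to-tail peak with Abl1 (2.91). Among synaptic genes, the GABA-A receptor subunit genes Gabra4 and Gabrb1 share a head-to-head peak of fold 10.5 and 1929 bp in width (chr5:71656655-71658583). Mc1r/Tubb3 had 7.27, with Tubb3 encoding neuronal tubulin. The 5 peaks of the clock list had a median of 2.62, from 1.96 to 12.1, the highest being Per3/Gm38529. Marker lists were looked up for the tissue label: 57 of 64 hypothalamic genes (89.1%) and 43 of 43 glia and vessel genes had a peak inside the gene or within 1000 bp of it. The same held for 77.1% of all protein-coding genes, so these counts say little about the tissue. The 7 hypothalamic genes without one were Nms, Barhl1, Npvf, Dbx1, Vip, Pmch and Gnrh1.

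The promoters of head-to-head genes were compared with others over 300 bases from RefSeq. Sequences were available with a start within 500 bp of the span's end for 14217 genes. The median GC content was 63.0% for 1448 head-to-head genes, 61.0% for 6840 genes with a single-gene peak at the start and 44.7% for 4470 genes without a peak at an end. The ratio of observed to expected CpG was 0.851, 0.741 and 0.162 in the same order. The ETS letters were found in 28.7% of head-to-head promoters (Wilson 26.4 to 31.0%), 14.7% of single-gene start promoters (13.9 to 15.6%), 2.64% of those without a peak and 12.5% of all. Paired promoters overlap in sequence, and with 1 gene per region the ETS share was 27.5%. YY1 letters stood at 5.32%, 2.47%, 0.0895% and 1.99%, and the TATA box at 4.49%, 7.54%, 29.0% and 14.1%. The shares for SP (67.9% and 65.8%), NRF1 (5.94% and 5.42%) and the CCAAT box (40.3% and 38.0%) had overlapping Wilson intervals in head-to-head and single-gene start promoters.

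**Figure D5:**
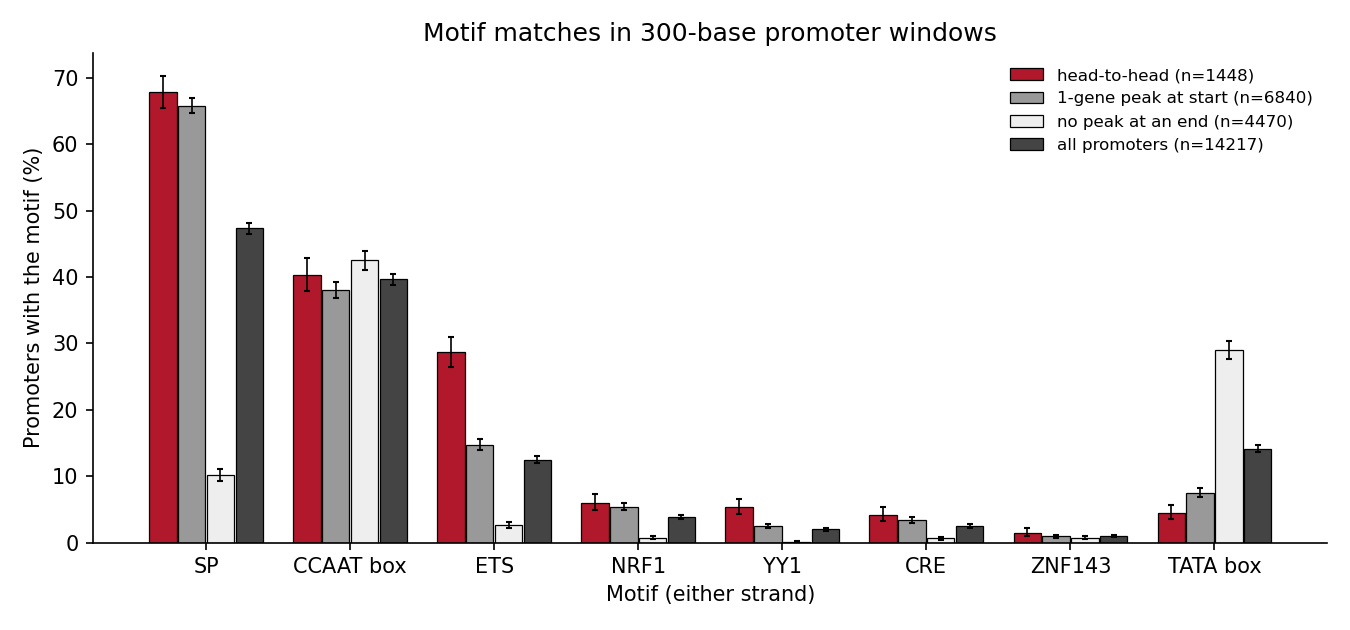
Percent of 300-base promoters that hold each motif on either strand, for head-to-head genes, genes with a single-gene start peak, genes without a peak at an end, and all promoters, with Wilson 95% intervals. The ETS motif stands at 28.7% in head-to-head promoters and 14.7% in single-gene start promoters.

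Fold was also compared at like CpG content, with promoters cut into 4 equal parts by CpG ratio. In the part with the lowest ratio the median was 6.32 for head-to-head peaks (48 peaks) and 5.39 for single-gene start peaks. In the next parts it was 10.4 against 8.98, 11.7 against 9.87, and 11.1 against 9.91. The head-to-head median was higher in each part. Peaks with the ETS letters had a median fold of 11.6 and those without 10.4 in head-to-head pairs, and 11.2 against 8.22 in single-gene start peaks. This was not particular to ETS. In the same order the medians were 11.8 against 10.7 and 11.5 against 8.52 for NRF1, and 11.9 against 10.7 and 10.7 against 8.60 for YY1. For ZNF143, SP and the CCAAT box the median was also higher with the letters in both classes. In head-to-head peaks the SP medians were almost equal (10.81 against 10.75), and only 14 peaks had the ZNF143 letters. For CRE the median was higher with the letters only in single-gene start peaks (10.6 against 8.61), and for the TATA box it was lower in both classes.

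At the 1000 bp limit itself, peaks on both sides had low and similar medians. The shared peaks whose second end lay 901 to 1000 bp away numbered 145, with a median fold of 3.93, and 103 peaks had it at 1001 to 1100 bp, with a median of 3.65. Just inside were Gtf2a2/Bnip2 (1000 bp, fold 17.4), Hectd3/Urod (999 bp, 5.38) and Gprin1/Cdhr2 (999 bp, 4.75). Just outside were Wdr73/Nmb (1001 bp, 7.84), Gm4275/Ate1 (1001 bp, 14.4) and Rpl7/Rdh10 (1002 bp, 7.89).

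Members are not independent of each other. The 2001 peaks belonged to 1917 sets of genes, and 82 sets carried 2 or 3 peaks. Fig4/Ak9, for instance, had head-to-head peaks of fold 14.1 and 3.98, and Cfap52/Stx8 of 13.8 and 2.67. Spans of the genes overlapped in 672 members (33.6%), and 164 (8.20%) involved a predicted gene.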

How the data were processed

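The analysis used the peak list of bulk H3K27ac CUT&Tag from hypothalamus, 1 list for 3 replicates; how these were merged is not given in the sources used here. Per the submitters' processing notes, which assign no roles, the build was mm10 and the tools were UMI-tools 1.1.4, STAR 2.7.10a, MACS2, BWA 0.7.17 and cutadapt 4.5. The deposited columns hold, by their order and values, a score, a fold ratio at the summit and the −log10 q-value of the authors' peak caller; the background of the fold and the depth are not given, so no precision per peak could be computed. Only the fold, −log10 q, positions and summits were used.

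Gene spans came from RefSeq (GRCm38.p6), and strand and sequence from RefSeq promoters (250 bases before to 50 after the start). Counts, medians, quartiles and Wilson intervals were computed with Python 3.11.15, pandas 2.3.3 and scipy 1.17.1; the assignment of peaks to gene ends was tested on simulated data. Nothing was tested for significance. Named pairs were, for each orientation, the 5 of highest fold, the 2 of lowest and the widest; the 3 with most genes; up to 3 per gene list; the textbook pairs; and those at the distance limit. Not all are printed, and a few named pairs are not reported here. The members and lists were chosen with earlier results of these data known, and the comparisons by summit distance, CpG ratio and noncoding partner were added after values were seen. Alternatives changed the distance limit, the overlap rule, the peak filter and the genes used.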

Additional observations from a re-analysis of the deposited data

How the results depend on the processing

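Of 28 alternative values, 19 stayed the same, 9 moved and 0 reversed. Differences in median fold or width were judged by the spread over autosomes, and counts by a limit of 1.5 times. The share of strong peaks and the share of close head-to-head ends with a shared peak were judged by the Wilson interval of the reported value. With a limit of 500 bp, 1262 peaks were shared and 76.2% of them were strong, against 60.6% of single-gene peaks. With 2500 bp, 4309 were shared, 41.7% were strong against 35.9%, and the difference in median fold was 0.639. Counting any overlap of the peak with the window, 55.9% of shared peaks were strong against 45.9%, and 91.9% of close head-to-head ends had a shared peak. With only peaks above the median −log10 q, 72.1% were strong against 63.7%, the difference in width was 72.5 bp and that in median fold 1.19. The cause of each shift was not tested, beyond the larger or smaller set of peaks that each rule admits. No paired analysis was possible because the 3 bulk replicates share 1 list without a value per replicate. For the same reason no replicate could be left out, and the depth behind each peak is unknown.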

Other observations

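Some genes counted as having a peak alone have a noncoding neighbour. Single-gene start peaks without another kind of gene within 1000 bp had a median fold of 8.33 (7308 peaks), those with an end of a long noncoding RNA gene 9.04 (1056), and those with a divergent noncoding start 9.42 (817), beside 10.7 for head-to-head peaks.

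Head-to-head peaks stood farther from their neighbours. The median distance to the next peak was 6292.5 bp, against 4883 bp for single-gene start peaks and 1435 bp for all autosomal peaks, and 14.5% had another peak within 1000 bp, against 24.3% and 40.4%. Tail-to-tail peaks had one in 40.1% of cases.

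Starts on the same strand that share a peak, 21 cases, had a median fold of 11.3. The highest were Xntrpc/Xndc1 (16.7), Htd2/Rpp14 (16.4) and Poln/Haus3 (15.7). In Xntrpc/Xndc1 and Htd2/Rpp14 the spans begin at the same base, and in Poln/Haus3 they begin 102 bp apart. Peaks at 3 or more genes, 34 cases, had a median of 8.14. The highest were Gm45935/Setdb2/Cab39l (19.3) and Sfi1/Gm51877/Eif4enif1 (16.5), and H2ac21/H2ac20/H2bc21 was the widest at 2768 bp. Gm45935 and Setdb2 also begin at the same base. The peaks with 14 and 25 genes lie at the protocadherin alpha and gamma clusters, whose genes end in common exons, with a fold of 2.24 and 4.10.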
